A study of Gallus gallus with 16 samples.

Results

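Neural crest cells arise at the dorsal edge of the neural tube, migrate through the embryo and form neurons, glia, pigment cells and mesenchyme. Its vagal part supplies most of the enteric nervous system. SOX10 and TFAP2B are transcription factors of neural crest cells, and SOX10 is known for maintaining crest progenitors and for glial and pigment cell fates. SOX3 is a transcription factor best known from neural progenitors, and MSX1 is a homeobox factor of the neural plate border and early crest.

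A set of 200 genes was examined whose transcripts were abundant in sorted chick neural crest cells carrying Cas9 alone or Cas9 with sox3 or msx1 guides, and scarce in cells carrying sox10 guides, tfap2b guides or both. They were taken from 17717 autosomal genes among 24881 features of the count table. Each gene received a score, the log2 ratio of the lowest level in any cas9, sox3 or msx1 library to the highest level in any sox10, tfap2b or double library. The 200 genes were thus selected on their measured levels in all 16 libraries. Levels were counts scaled to the library total (CPM, counts per 1000000), and 0.5 CPM was added to both terms. Genes with a score of 1 or more, and a cas9 mean within 2-fold of the mean of the sox3 and msx1 libraries, were ranked, and the top 200 were kept. The score is built from these levels, so the gap between both sides is a description of how the genes were chosen and was not tested.

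The study asked how CRISPR/Cas9 targeting of putative core transcription factors alters the transcriptome of these cells. All 16 libraries came from wild-type chicken embryos at Hamburger and Hamilton stage 18, and the labels describe them as Citrine-positive neural crest cells. The labels' protocols describe both a sort of fluorescent cells from dissociated vagal regions and an RNA extraction from dissected dorsal neural tube, so the material behind the libraries is not settled by the labels; it is treated here as sorted cells, as the sample labels have it. Every group, the control included, carried pCAG Cas9-2A-Citrine, a plasmid that drives Cas9 and the fluorescent protein Citrine from a ubiquitous promoter. The cas9 control carried no guide plasmid (2 libraries). The sox3 group carried pcU6:sox3_g1 and pcU6:sox3_g2 (2 libraries), and the msx1 group carried pcU6:msx1 alone (3 libraries). The sox10 group carried pcU6:sox10_g1 with pcU6:sox10_g2 (3 libraries), and the tfap2b group carried pcU6:tfap2b_g1 with pcU6:tfap2b_g2 (3 libraries). The double group, named dko in the labels, carried both tfap2b guide plasmids and pU6:sox10_g1 (3 libraries), so it had 1 of the 2 sox10 guides and 3 guide plasmids in all. Cells were selected for the Cas9 plasmid and not for an edited allele. The cas9, sox3 and msx1 groups are called the high side below, and the sox10, tfap2b and double groups the low side.

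Total counts ranged from 5721022 to 24929531 per library. At an equal depth of 5721022 counts, 14487 to 14907 genes had a count in high-side libraries and 12607 to 13841 in low-side libraries. The 100 most abundant genes took 12.0% to 16.5% of counts on the high side and 15.9% to 19.9% on the low side. These features move with the split by which the genes were chosen, and their part in it was not tested. Between the 2 cas9 libraries, between the 2 sox3 libraries and between msx1 replicates 1 and 2, the chi-square statistic was 7.42 to 13.0 per gene. In the other pairs of libraries within a group it was 24.1 to 120. All pairs differed by more than sampling noise, but the 3 close pairs all lay on the high side, where they lower the spread between replicates. The IDs in the count table are not paired with gene names in the files, and 0 of them matched the reference table, so the 200 genes are described by ID, position and structure. For the same reason the targeted genes and the cell type markers were not analysed here, and the labelled cell type was not checked.

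Many autosomal genes separated both sides completely, in either direction, and how the directions balanced depended on the scaling. Of 16717 autosomal genes with a count, 3110 (18.6%) had every high-side library above every low-side library on this scale, and 1016 (6.08%) had a score of 1 or more. The opposite order, with every low-side library above every high-side library, held for 1088 genes, of which 9 had a score of the same size in that direction. CPM of the library total sets both sides 0.42 log2 units further apart than TMM scaling, which corrects for differences in RNA composition. On TMM-scaled CPM, 2181 genes had every high-side library above, 628 of them with a score of 1 or more, and 1669 had every low-side library above, 87 of them with a score of that size. The condition on the cas9 mean removed 87 of the 1016 genes, 73 of them because cas9 was the higher, and left 929 (5.56%), or 580 on TMM-scaled CPM. The scores of the 200 genes ranged from 2.11 to 5.58 with a median of 2.45. A score of 3 or more was reached by 34 genes. The last gene inside was ENSGALG00000008034 (galGal5 chromosome 18, 10931921 to 10957831, 21 exons) with a score of 2.11, and the first outside was ENSGALG00000029175 (chromosome 1, 141049589 to 141090557, 5 exons) with 2.10. The edge of the list therefore falls within a continuum of scores.

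The 200 genes, 1.50% of the autosomal genes tested, held a larger share of the counts on the high side than on the low side, which their choice fixes. Their summed level was 20163 and 20267 CPM in the cas9 libraries, 14121 and 15331 CPM in the sox3 libraries, and 15564, 14946 and 23796 CPM in the msx1 libraries. It was 1050, 1160 and 942 CPM in the sox10 libraries, 1536, 785 and 1228 CPM in the tfap2b libraries, and 1335, 1666 and 1264 CPM in the double libraries. In these bulk samples, fewer cells of a type and less RNA per cell cannot be told apart. The median level of a gene was 51.5 and 54.2 CPM in cas9, 42.2 and 41.4 CPM in sox3, and 38.5, 38.7 and 64.5 CPM in msx1. It was 1.32, 1.76 and 1.27 CPM in sox10, 3.86, 1.37 and 2.65 CPM in tfap2b, and 2.65, 4.06 and 2.09 CPM in the double group. Within the low side the libraries of the tfap2b and double groups thus spread over a wider range than those of the sox10 group, and tfap2b replicate 2 lay at the sox10 level.

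**Figure D1:**
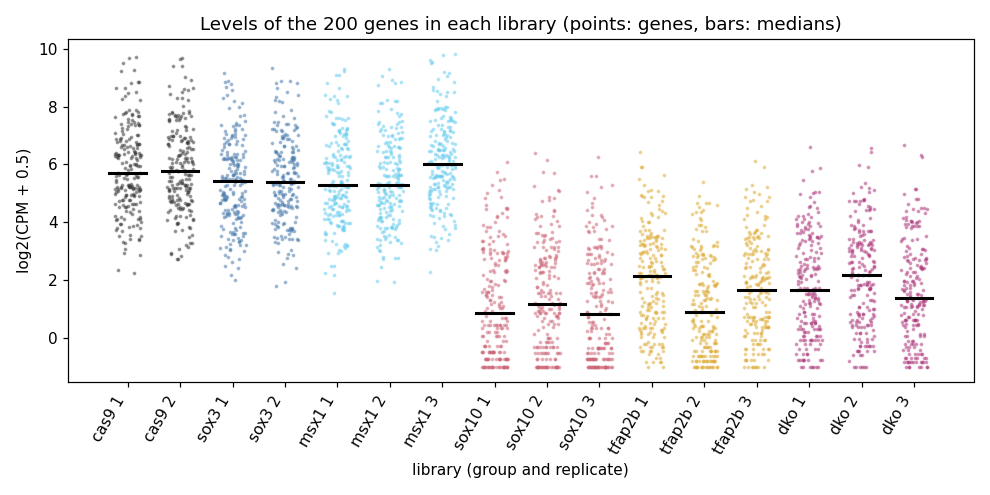
Level of each of the 200 genes in each library, as log2(CPM + 0.5). Points are genes, bars are medians over genes, and the horizontal scatter within a library carries no value. The 7 libraries on the left are the high side and the 9 on the right the low side. The row of points at the bottom of the low-side libraries are genes with 0 counts, which were most numerous in the sox10 libraries.

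On the low side most of these genes stood at a few percent of the control. As a share of the cas9 mean, the median gene stood at 3.28% in the sox10 group (quartiles 1.43% and 5.74%), at 4.64% in the tfap2b group (2.46% and 7.01%) and at 5.43% in the double group (3.10% and 8.05%). The highest share of any of the 200 was 16.4%, 16.8% and 16.5% in these groups. Over the autosomal genes tested, the medians were 54.7%, 67.7% and 76.4%. In all 3 groups together, 74 genes stood under 5% of the cas9 mean and 167 under 10%. Against cas9, all 200 were lower in each of the 3 groups by edgeR's quasi-likelihood fit with Benjamini-Hochberg adjustment at 0.05, where 26.6% of all 14081 genes tested were lower in sox10, 20.9% in tfap2b and 20.2% in the double group. Since the choice of genes fixes this count, nothing is read from it. The median log2 fold change of the 200 was -4.42, -4.06 and -3.94 in these 3 comparisons, which share the cas9 libraries, against -0.31, -0.18 and -0.09 over all genes tested. These fits used TMM scaling.

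Some of the 200 genes had 0 counts in a low-side library, and a few had 0 counts in every library of a low-side group. Of the 200 genes, 25, 25 and 30 had 0 counts in the 3 sox10 libraries, 2, 16 and 8 in the tfap2b libraries, and 7, 6 and 7 in the double libraries. None had 0 counts in any high-side library, which the choice of genes fixes. With the low-side libraries thinned to the 9112556 counts of the shallowest, the numbers were 25, 25 and 32 in sox10, 6, 21 and 9 in tfap2b, and 10, 6 and 15 in the double group. Each sox10 library therefore still had more of these genes at 0 than any library of the other low-side groups. The sox10 libraries also had fewer detected genes in general. At the lower equal depth given above, 12607 to 12857 genes had a count in sox10 libraries. The ranges were 13262 to 13841 in tfap2b and 13167 to 13785 in the double group. Whether the zeros among the 200 genes go beyond this wider difference was not tested. In all 3 sox10 libraries, 6 of the 200 genes had 0 counts. Set against a floor of 3 counts in the 3 libraries together, they were at least 50.7-fold to 331-fold lower than in cas9, where they held 5.19 to 33.8 CPM. In all 3 tfap2b libraries 1 gene had 0 counts, at least 71.3-fold lower, and no gene had 0 counts in all 3 double libraries. The floors cover counting error only.

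The gene with the highest score was ENSGALG00000016524 (chromosome 3, 104970733 to 104980694, 34 exons, 6168 bp of exons). It held 167 and 209 CPM in the cas9 libraries, 142 and 150 CPM in the sox3 libraries, and 93.9, 88.6 and 289 CPM in the msx1 libraries. It held 0.549, 1.01 and 0.292 CPM in the sox10 libraries, 1.36, 0.760 and 1.17 CPM in the tfap2b libraries, and 0.913, 0.318 and 0.545 CPM in the double libraries. The low-side libraries overlapped one another and lay far below every high-side library. The group means were 188 ± 29.7 CPM in cas9 (SD, n = 2) against 0.616 ± 0.362 in sox10, 1.09 ± 0.305 in tfap2b and 0.592 ± 0.300 in the double group (SD, n = 3 each), or 0.328%, 0.583% and 0.316% of cas9.

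ENSGALG00000001407 (chromosome 24, 1676278 to 1685806, 8 exons, 2805 bp) came second, with a score of 4.27. Its level was 26.9 and 27.3 CPM in cas9, 24.1 and 27.8 CPM in sox3, and 40.2, 38.8 and 47.5 CPM in msx1. On the low side it was 0.658, 0 and 0.779 CPM in sox10, 0.295, 0.456 and 0.628 CPM in tfap2b, and 0.274, 0.637 and 0.182 CPM in the double group. All 3 low-side groups overlapped near the level of a few counts, and the msx1 libraries were the highest. Over the 10 genes with the highest scores, the lowest high-side library held 18.7 to 469 CPM and the highest low-side library 0.780 to 34.2 CPM. Their remaining share of the cas9 mean was 0.066% to 3.73% in sox10, 0.583% to 2.98% in tfap2b and 0.316% to 3.93% in the double group.

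Abundant transcripts were among the 200 as well as scarce ones. The cas9 means ranged from 5.19 to 829 CPM, with 62 genes at 100 CPM or more and 28 under 20 CPM. ENSGALG00000021128 (chromosome 14, 4206721 to 4212949, 5 exons, 1886 bp) had the highest cas9 level, 839 and 819 CPM, with 468 and 475 CPM in sox3 and 607, 489 and 891 CPM in msx1. It stood at 22.1, 20.7 and 5.46 CPM in sox10, 29.9, 16.3 and 26.1 CPM in tfap2b, and 32.5, 34.2 and 31.0 CPM in the double group. The sox10 libraries overlapped those of tfap2b, while all double libraries lay above them. ENSGALG00000004465 (chromosome 6, 11528068 to 11545568, 19 exons, 7708 bp) followed with 830 and 795 CPM in cas9, 567 and 640 CPM in sox3, and 403, 429 and 725 CPM in msx1. It held 28.2, 20.2 and 14.2 CPM in sox10, 33.6, 19.0 and 20 CPM in tfap2b, and 12.0, 27.1 and 17.7 CPM in the double group, which overlapped throughout. Per kilobase of exon, the first gene stood at 440 CPM in cas9 and the second at 105 CPM. The 5 genes with the highest cas9 levels kept 1.94% to 9.83% of it in sox10, 2.91% to 8.87% in tfap2b and 2.33% to 14.1% in the double group.

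**Figure D2:**
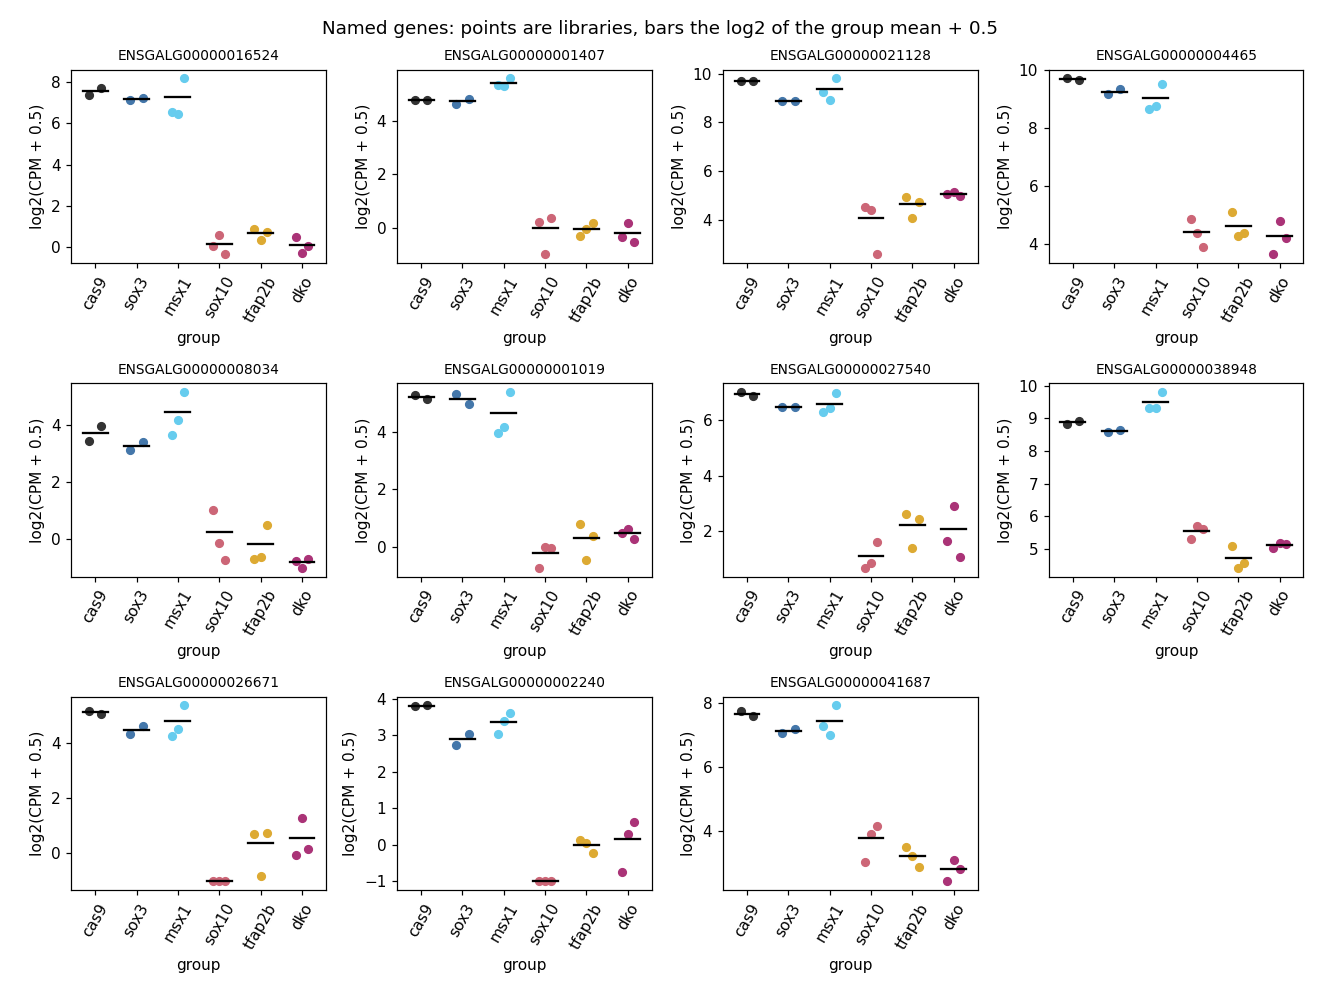
Level of each gene named in the text among the 200, as log2(CPM + 0.5), by group. Points are libraries and bars are the log2 of the group mean + 0.5 CPM; each panel has its own vertical scale. In every panel the high-side libraries lie above all low-side libraries, which is how the genes were chosen, and ENSGALG00000026671 and ENSGALG00000002240 have 0 counts in all 3 sox10 libraries.

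The score used the highest low-side library of each gene, so the levels of all 3 low-side groups entered the choice, and genes that were high in any 1 of them were left out. The choice did not fix the direction of a difference between these groups. It capped the level of each gene in all of them, with no lower limit, so the tests below are not independent of it. The 3 comparisons share libraries with one another, so their values are given side by side. In the double group, 15 of the 200 genes (7.5%) were higher than in the sox10 group and 2 (1%) were lower by edgeR's quasi-likelihood fit with Benjamini-Hochberg adjustment at 0.05. Over all genes tested, 6.15% were higher and 6.95% lower, so the share of higher genes lay near the background. At an unadjusted p under 0.05, 47 of the 200 (23.5%) differed, with a background of 30.3%. The median log2 fold change of the 200 was 0.43 (quartiles -0.19 and 1.18) against 0.03 over all genes, and 137 of the 200 (68.5%) lay above 0 against 51.6% of all genes. With the 6 genes at 0 in sox10 set to their bound, the median was 0.42. Every sox10 library lay below every double library for 44 genes (22%), where the background was 20%. The opposite order held for 5 genes (2.5%), where the background was 9.08%.

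The 15 genes higher in the double group kept 1.48% to 15.9% of the cas9 mean there and 0% to 4.54% in the sox10 group. Their mean levels were 0 to 3.89 CPM in sox10, 0.612 to 13.6 CPM in the double group and 13.5 to 242 CPM in cas9, so they remained far below the control in both. In the sox10 group 6 of the 15 rested on 3 counts or fewer, 2 of them on 0. The adjusted p of the 15 ranged from 0.00236 to 0.0495. Without dko replicate 1 the test called 8 of the 200 genes, where 5.2% of all genes tested were called. Without dko replicate 2 it called 9 (background 5.6%), without sox10 replicate 3 it called 11 (8.09%) and without sox10 replicate 2 it called 27 (19.6%). With the 3 close pairs on the high side each summed into 1 sample it called 2 (2%). DESeq2 called 33 (17.9%), limma-voom 1 (4.67%) and the fit of both groups alone 1 of the 140 it tested (2.06%). The percents are shares of all genes tested in the same fit, which moved between the fits as well.

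**Figure D3:**
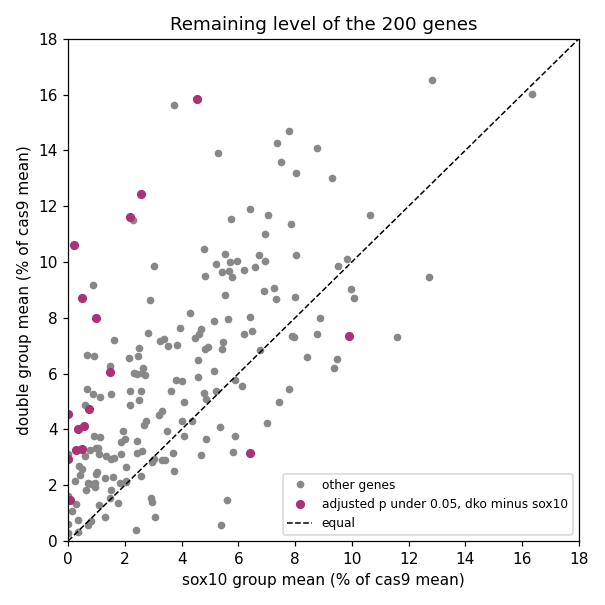
Mean level of each of the 200 genes in the double group against that in the sox10 group, both as a percent of the cas9 mean. Each point is a gene, purple points have an adjusted p under 0.05 for double minus sox10, and the dashed line marks equal values. Most points lie above the line, and of the 17 purple points 15 lie above it and 2 below.

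ENSGALG00000026671 (chromosome 9, 15899244 to 15900485, 3 exons, 747 bp) had the largest fitted rise in the double group over sox10. It held 35.1 and 32.5 CPM in cas9, 19.3 and 23.7 CPM in sox3, and 18.5, 22.1 and 40.0 CPM in msx1. In sox10 it had 0 counts in all 3 libraries, in tfap2b 19, 1 and 13 counts, and in the double group 5, 24 and 10 counts. Set against a floor of 3 counts in the 3 sox10 libraries together, its mean level was at least 9.68-fold higher in the double group and at least 7.69-fold higher in tfap2b. By edgeR's quasi-likelihood fit with Benjamini-Hochberg adjustment, adjusted p came to 0.0154 for double minus sox10 (0.00113 to 0.214 over the alternatives) and 0.0450 for sox10 minus tfap2b (0.00422 to 0.272). The second call was lost in 17 of 22 alternatives, the first in 2.

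ENSGALG00000002240 (chromosome 12, 1772019 to 1778134, 4 exons, 483 bp) had the second largest. It held 13.4 and 13.6 CPM in cas9, 6.12 and 7.69 CPM in sox3, and 7.69, 9.94 and 11.7 CPM in msx1. It had 0 counts in every sox10 library, 10, 7 and 4 counts in tfap2b, and 1, 9 and 17 counts in the double group. Every tfap2b and double library thus held at least 1 count where the sox10 libraries held none, and the mean was at least 5.98-fold higher in the double group and 4.82-fold higher in tfap2b against the same floor. Its adjusted p by edgeR's quasi-likelihood fit with Benjamini-Hochberg adjustment was 0.0150 for double minus sox10 (0.00375 to 0.364 over the alternatives) and 0.0436 for sox10 minus tfap2b (0.0132 to 0.339). The second call was lost in 16 of 22 alternatives and the first in 2.

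The 2 genes lower in the double group than in sox10 had the opposite order. ENSGALG00000041687 (chromosome 1, 49527794 to 49546551, 20 exons) held 7.57, 14.3 and 17.4 CPM in sox10, 10.9, 8.66 and 6.73 CPM in tfap2b, and 4.84, 7.96 and 6.42 CPM in the double group, against 215 and 194 CPM in cas9. In sox3 it held 133 and 145 CPM and in msx1 155, 127 and 244 CPM. The sox10 and double libraries overlapped for this gene, with sox10 replicate 1 inside the range of the double group. The log2 fold change for double minus sox10 was -1.30 (SE 0.33), with an adjusted p of 0.0203 by edgeR's quasi-likelihood fit with Benjamini-Hochberg adjustment (0.00119 to 0.25 over the alternatives). Its exons overlap another gene, so its counts are uncertain.

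ENSGALG00000038948 (chromosome 26, 534491 to 563446, 26 exons, 6405 bp) kept more of its level in the sox10 group than in the others. It held 38.7, 51.8 and 48.6 CPM in sox10, 33.9, 21.0 and 23.4 CPM in tfap2b, and 32.3, 35.7 and 35.2 CPM in the double group, against 456 and 482 CPM in cas9. In sox3 it held 385 and 403 CPM and in msx1 630, 631 and 895 CPM. Every sox10 library lay above every tfap2b and double library. The log2 fold change was 1.01 (SE 0.18) for sox10 minus tfap2b and -0.69 (SE 0.18) for double minus sox10, with adjusted p of 0.0112 (1.61e-05 to 0.567 over the alternatives) and 0.0240 (0.00138 to 0.257) by edgeR's quasi-likelihood fit with Benjamini-Hochberg adjustment.

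Between the single targetings, 5 of the 200 genes (2.5%) were lower in sox10 than in tfap2b and 1 (0.5%), ENSGALG00000038948, was higher, by edgeR's quasi-likelihood fit with Benjamini-Hochberg adjustment at 0.05. The background was 1.92% lower and 0.653% higher over all genes tested. At an unadjusted p under 0.05, 42 of the 200 (21%) differed, with a background of 19.5%. The adjusted p of the 5 ranged from 0.00884 to 0.0450, and their levels were 0 to 3.89 CPM in sox10 and 0.493 to 12.0 CPM in tfap2b. The median log2 fold change of the 200 was -0.25 (quartiles -1.0 and 0.39) against 0.00 over all genes, and it stayed at -0.25 with the genes at 0 set to their bound. It reached 0 without tfap2b replicate 1. Every sox10 library lay below every tfap2b library for 27 genes (13.5%) with a background of 10.7%, and above for 8 genes (4%) with a background of 4.99%. The call count was 17 without sox10 replicate 2, 18 without tfap2b replicate 2 and 11 without sox10 replicate 1. The shares of all genes called in these fits were 6.55%, 9.31% and 2.9%. Without any 1 library of cas9, sox3 or msx1, or without tfap2b replicate 1 or 3, the count was 3, with a background of 0.799% to 1.74%. It was 0 with the close pairs summed (background 0.0548%), 17 by DESeq2 (7.18%) and 0 by limma-voom (0.241%). In the fit of both groups alone it was 0 of the 135 tested, and 0% of all genes were called.

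Between the double and tfap2b groups, edgeR's quasi-likelihood fit with Benjamini-Hochberg adjustment called 0 of the 200 genes, where 0.0426% of all genes were called. DESeq2 and limma-voom also called 0. At an unadjusted p under 0.05, 18 of the 200 (9%) differed, with a background of 10%. The median log2 fold change was 0.11 (quartiles -0.23 and 0.58) against -0.02 over all genes, and its sign turned without tfap2b replicate 2 (-0.04) and without dko replicate 2 (-0.03). Every double library lay above every tfap2b library for 16 genes (8%) with a background of 9.18%, and below for 4 genes (2%) with a background of 6.29%. The lowest mean of the 3 low-side groups was in sox10 for 122 genes, in tfap2b for 49 and in the double group for 29. The highest was in the double group for 118 genes, in tfap2b for 49 and in sox10 for 33. The highest single low-side library, which sets the score, was dko replicate 2 for 64 genes, tfap2b replicate 1 for 35 and dko replicate 1 for 30. These ranks used CPM of the library total and were not counted over all genes tested. TMM factors were 0.759 to 0.839 in sox10, 0.805 to 0.974 in tfap2b and 0.943 to 0.979 in the double group. CPM of the library total thus sets sox10 lower against the double group than TMM scaling does. Over the autosomal genes tested, the median share of the cas9 mean also rose from sox10 (54.7%) to tfap2b (67.7%) to the double group (76.4%).

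**Figure D4:**
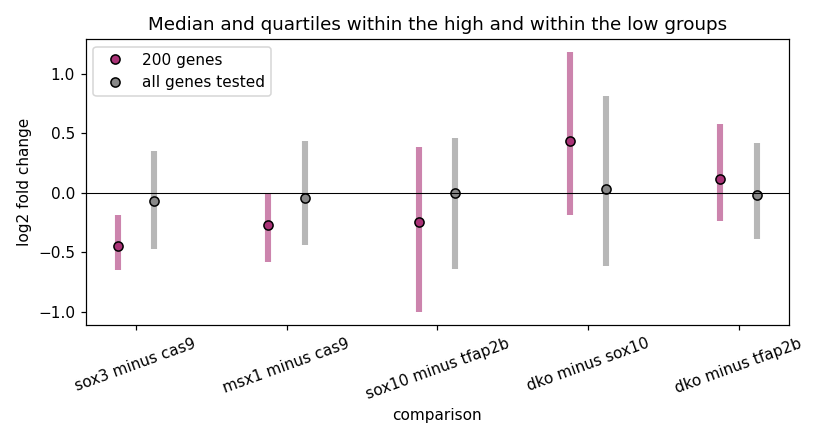
Median (circle) and quartiles (bar) of the log2 fold change, over the 200 genes and over all 14081 genes tested, for the 5 comparisons within the high side or within the low side. Positive values are higher in the group named first. The medians of the 200 genes were -0.45 and -0.27 against cas9 on the high side and -0.25, 0.43 and 0.11 on the low side, and the quartiles of the 200 genes and of all genes overlap in each comparison.

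The comparisons within the high side asked whether the 200 genes differed after sox3 or msx1 targeting; both share the cas9 libraries. In each, edgeR's quasi-likelihood fit with Benjamini-Hochberg adjustment called 0 of the 200 genes, where 0.646% of all genes tested were called for sox3 and 2.83% for msx1. At an unadjusted p under 0.05, 6 of the 200 (3%) differed in sox3 with a background of 7.95%, and 11 (5.5%) in msx1 with a background of 13.8%. The choice of genes bears on these counts, since it bounded the cas9 mean to within 2-fold of the mean of the sox3 and msx1 libraries together. It did not hold either group alone to 2-fold. The calls also depended on the tool and, with the same edgeR test, on which libraries shared the fit. DESeq2 called 0 for sox3 and 2 for msx1, limma-voom 103 and 111, and the fit of the compared groups alone 99 and 21. In these last fits the background also rose, to 29.9% and 38.3% by limma-voom and 32.3% and 16.5% with the groups alone. The share of the 200 called lay above it in all but msx1 with the groups alone, where it lay below. Most of these calls were lower than cas9. Lower calls numbered 96 for sox3 and 99 for msx1 by limma-voom, and 90 and 17 with the groups alone.

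The levels themselves leaned below the control, but the choice of genes used these levels, and the background genes had no such limit. As a share of the cas9 mean, the median of the 200 genes was 72.6% in sox3 (30.7% to 211%) and 88.6% in msx1 (42.9% to 242%). The median log2 fold change was -0.45 for sox3 (quartiles -0.65 and -0.19) against -0.07 over all genes, with 24 of the 200 above 0. For msx1 it was -0.27 (quartiles -0.58 and 0.00) against -0.05, with 50 of the 200 above 0. Both sox3 libraries lay below both cas9 libraries for 156 genes (78%), with a background of 39.7%, and above for 13 (6.5%), with a background of 26.7%. The sox3 libraries and the cas9 libraries are each a close pair, and a small spread makes such full separation easier. All 3 msx1 libraries lay below both cas9 libraries for 49 genes (24.5%) with a background of 23.8%, and above for 27 (13.5%) with a background of 25.8%. The lowest mean of the high side was in sox3 for 144 genes, in msx1 for 39 and in cas9 for 17. This rank was not counted over all genes tested.

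Within the msx1 group, replicate 3 stood apart. In msx1 replicate 3, the deepest library, 188 of the 200 genes exceeded both other msx1 libraries, which held for 45.5% of the autosomal genes tested. It was the highest of the 7 high-side libraries for 120 genes. The 2 other msx1 libraries were the lowest of the high side for 38 and 49 genes, and sox3 replicate 1 for 73. These highest and lowest libraries were not counted over all genes tested. The summed level of the 200 genes in msx1 was 18102 ± 4941 CPM (SD, n = 3), against 20215 ± 73.7 in cas9 and 14726 ± 855 in sox3 (SD, n = 2 each), so the difference between msx1 and cas9 was smaller than the spread of the msx1 libraries. On the low side it was 1051 ± 109 CPM in sox10, 1183 ± 378 in tfap2b and 1422 ± 215 in the double group (SD, n = 3 each).

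The position of the genes in the genome was not used in the choice. Chicken chromosomes fall into large macrochromosomes and small, gene-dense microchromosomes. Of the 200 genes, 114 (57%) lay on chromosomes 11 to 33, where 35.7% of the 13361 autosomal genes tested lay. On chromosomes 1 to 5 there were 53 (26.5%), against 47.2%, and 33 (16.5%) on chromosomes 6 to 10, against 17.1%. Among the 9322 tested genes that were at least as abundant in every high-side library as the scarcest of the 200, the shares were 36.2%, 46.9% and 16.9%. By single chromosome, 12 of 333 tested genes (3.60%) on chromosome 12 and 9 of 269 (3.35%) on chromosome 28 were among the 200, against 5 of 1248 (0.401%) on chromosome 2 and 17 of 1949 (0.872%) on chromosome 1.

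The same lean was present along the list and beyond its end. In successive blocks of 50 genes by score, 56%, 52%, 70% and 50% lay on chromosomes 11 to 33. Of the 729 further genes that met the rule without reaching the top 200, 53.4% did. Without the limit on the score or the cas9 condition, 47.1% of the 3110 genes with every high-side library above did. On TMM-scaled CPM it was 49.6% of 2181. Of the 1088 genes with every low-side library above every high-side library, also taken without a limit on the score, 31.0% did. On TMM-scaled CPM it was 29.2% of 1669.

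**Figure D5:**
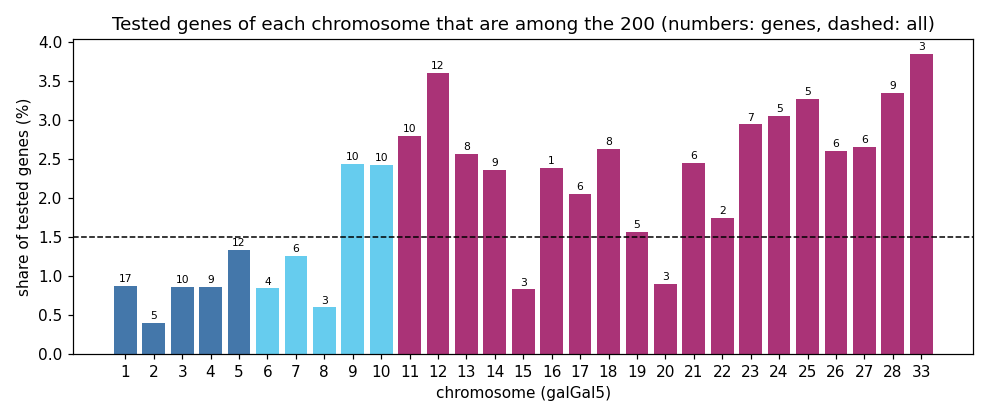
Share of the tested genes of each autosome that were among the 200, by galGal5 chromosome; numbers above the bars are genes. Blue bars are chromosomes 1 to 5, light blue 6 to 10 and purple 11 to 33, the dashed line is the share over all autosomal genes tested (1.50%), and chromosomes 30, 31 and 32, with 4, 1 and 12 tested genes and none of the 200, are not drawn. Chromosomes 1 to 8 lie below the line and most of the purple bars above it.

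The genes also differed from all autosomal genes tested in structure. Their median exonic length was 2509 bp (quartiles 1711 and 3663), against 1917 bp over autosomal genes tested and 2160 bp over those as abundant. They had a median of 13 exons, against 8 and 9. Their genomic span was nevertheless similar, 12132 bp against 11994 and 14423 bp, and 3 of the 200 (1.5%) spanned more than 100 kb, against 6.62% and 7.10%. The 729 further genes that met the rule were close to the 200, with medians of 2382 bp of exons, 12 exons and a span of 14232 bp. The genes in the opposite order had a median exonic length of 1549 bp and 6 exons, but they were taken without a limit on the score. Per kilobase of exon the median cas9 level of the 200 was 25.5 CPM, against 10.2 CPM over autosomal genes tested and 22.2 CPM over those as abundant. The strand was even, with 102 of 200 (51%) on the plus strand against 50.7%, and 17 genes (8.5%) had exons overlapping another gene, against 7.37%; the counts of those 17 are uncertain.

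Few of the 200 genes lay next to one another, though the share of such places was above their share of all genes tested. This difference was not tested, and the share of all genes takes no account of the uneven spread of the 200 over chromosomes. Of the 400 places next to them in the order of tested genes, 14 (3.5%) were held by another of the 200, where these genes made up 1.50% of all autosomal genes tested. This gave 7 pairs and no longer run. The pair with the highest scores was ENSGALG00000001019 (chromosome 28, 2143380 to 2155407, plus strand) and ENSGALG00000027540 (chromosome 28, 2157333 to 2164887, minus strand), with scores of 3.18 and 3.38. The first overlaps another gene, so its counts are uncertain. The other 186 genes had neighbours outside the list on both sides. Only direct neighbours were counted, so genes of the list with another tested gene between them were not, however near. Several of the 200 lay on chromosome 1 between 49460280 and 50876857. Whether such grouping goes beyond that of all genes was not tested.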

How the data were processed

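The authors deposited 1 table of raw read counts, whole numbers with no normalization, beside each gene's exon coordinates and summed exon length. The submitters' processing notes name STAR 2.4.2a, featureCounts, Subread 1.4.5, DESeq2 and the galGal5 build. Per the labels' protocols, SMART-Seq v4 libraries were sequenced as paired reads on a NextSeq500. The strand setting of the counting is not given in the sources. The labels do not tell whether replicate libraries came from separate embryos, so p-values measure the spread between these samples alone, which may be technical. The main fit estimated the spread of each gene over all 16 libraries, so each p-value also rests on groups outside its comparison. That spread was unequal. Between libraries of a group, log2 levels of genes with 20 counts or more correlated at 0.95 to 0.99 on the high side. On the low side the range was 0.83 to 0.96. What this does to the calls was not tested.

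CPM were computed from the counts and the library totals. Comparisons were fitted in R 4.3.3 with edgeR 4.0.16 (quasi-likelihood test) and limma 3.58.1 over all 16 libraries, with no factor other than group, TMM scaling (factors 1.11 to 1.26 on the high side and 0.759 to 0.979 on the low side), the default expression filter and robust estimation. It kept 14081 genes, all 200 among them, and p-values were adjusted by Benjamini-Hochberg over all of them with a threshold of 0.05. The common biological coefficient of variation, with 10 residual degrees of freedom, was 0.478. Each standard error was the log2 fold change over the root of its F statistic. The fit was also run on counts simulated from its own estimates, with the same spread in every group. Such counts cannot show what an unequal spread does to the calls, and nothing is read from them here. Alternatives were RLE size factors, DESeq2 1.42.0, limma-voom, no filter, the compared groups alone, the replicate number as a block, each library left out, and other forms of the score.

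Genes were named by rank: highest score, highest cas9 CPM, largest called fold change per comparison and direction, the edge of the list, and the best pair of neighbours, with at most 2 IDs each. The 200 genes, the comparisons and these rules were chosen with earlier results of these data known. Gene lists of cell types and pathways, and gene sequences, were not used here, since IDs could not be paired with symbols.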

Additional observations from a re-analysis of the deposited data

How the results depend on the processing

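The number of the 200 genes called varied with the fit, and the cause was not tested. For sox3 minus cas9 it was 0 in the main fit and in 21 of 23 alternatives, but 99 (9 higher, 90 lower) with the groups alone and 103 (7 higher, 96 lower) by limma-voom with quality weights. For msx1 minus cas9 it was 0, but 21 (4 higher, 17 lower) with the groups alone. By DESeq2 it was 2 (1 higher, 1 lower) and by limma-voom 111 (12 higher, 99 lower). For sox10 minus tfap2b it was 6, but 17 by DESeq2, 0 by limma-voom, 0 with the groups alone (which tested 135 of the 200) and 0 with close pairs summed. For double minus sox10 it was 17, but 33 by DESeq2, 1 by limma-voom, 1 with the groups alone (140 tested) and 2 with close pairs summed. For double minus tfap2b it was 0 throughout. Leaving out 1 library gave 0 to 0 for both high-side comparisons, 3 to 18 for sox10 minus tfap2b and 8 to 27 for double minus sox10. The share of all genes called moved over the alternatives too. It ranged from 0% to 9.31% for sox10 minus tfap2b and from 2% to 19.6% for double minus sox10. Correlations between same-numbered libraries in their deviations from the group mean ranged from -0.10 to 0.16, and no comparison had all of them over 0.1. Deviations within a group of 2 or 3 libraries sum to 0. These values therefore cannot decide whether the replicate numbers pair the samples. With the replicate number as a block, 3 genes were called for sox10 minus tfap2b and 12 for double minus sox10. The named genes kept their call in 104 of 157 results under alternatives, lost it in 53 and reversed in 0. The rule left 929 genes, but 580 with TMM-scaled CPM and 1947 with group means, and 909 to 1030 without 1 library. A list of 200 made under other settings shared 161 to 197 genes with the main one. Close pairs, thinned depth, the counts of genes past the rule and the balance of directions on TMM-scaled CPM were examined after seeing the data. On the low side many values rest on a few counts, where counting error is large.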
